A study of Mus musculus with 4 samples.

Results

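The mouse genes examined here are 10 members of the dual specificity phosphatase family: Dusp1, Dusp6, Dusp8, Dusp10 and Dusp16, which encode MAP kinase phosphatases, and Dusp3, Dusp13, Dusp18, Dusp23 and Dusp26, which encode small atypical members of the family. They are 10 of the 18193 genes with a probe set of their own on the arrays, were read by 17 probe sets, and were selected on the starvation and genotype ratios of these same arrays. The counts, medians and ratios below are therefore descriptions of these genes and not tests. Expression was measured in gastrocnemius muscle of male mice from a C57BL/6N and FVBN cross on Affymetrix Mouse Genome 430 2.0 arrays. The knockout mice (FoxO1,3,4-/-) carried floxed Foxo1, Foxo3 and Foxo4 alleles and a Cre transgene driven by the myosin light chain 1 fast promoter, a promoter that the study describes as active in fast (type II) but not slow (type I) fibres, so that slow fibres and the other cells of the tissue were not targeted. The control mice are described in the series design as FoxO1,3,4 f/f, which carry the floxed alleles too, and are called wild type in the sample labels. Mice of each genotype were starved for 24 h with free access to water or were fed ad libitum. Each of the 4 conditions is 1 array, hybridised with RNA pooled from 6 muscles of 3 mice, so no difference has a replicate check, an SD or a p-value. Fold changes were read against the 1.5-fold threshold that the study's methods use, and a gene past it in either direction is referred to as called.

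Dual specificity phosphatases remove phosphate from tyrosine and from serine or threonine residues of the same substrate. The MAP kinase phosphatases among them switch off ERK, JNK and p38 kinases by dephosphorylating the threonine and the tyrosine of the activation loop, and several are themselves induced by the pathways they inhibit. The atypical members are smaller, lack the MAP kinase docking domain and act on a wider range of substrates. In skeletal muscle, MAP kinases respond to contraction, growth factors and cellular stress.

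The deleted genes were examined first, each by its probe set of highest mean signal. Foxo4 had a signal of 34.3 in starved and 31.3 in fed knockout muscle, against 291.3 in starved and 296.9 in fed control muscle. Foxo1 had 165.5 and 185.2 in starved and fed knockout muscle, against 554.4 and 303.8 in starved and fed control muscle. By that probe set, out of 3 for the gene, Foxo3 showed no such loss (460.9 starved and 297.3 fed in knockout, against 477.8 starved and 250.1 fed in control muscle). Where its probes lie relative to the deleted part was not analysed. The study reports less Foxo3 transcript by RT-PCR in tibialis anterior muscle of these knockout mice, and less FoxO3 protein by immunoblot in their gastrocnemius muscle. All 10 fast fibre markers were at or above the median of every array, as were all 5 slow fibre markers. The arrays were not on a common scale, with median signals of 22.9 in starved and 23.8 in fed knockout muscle, against 26.0 in starved and 26.3 in fed control muscle. The median log2 ratio of knockout over control over all 12565 genes that passed the filter on dim probe sets was -0.16 in starved and -0.20 in fed muscle. A set of hair shaft genes stood out on a pair of arrays. The summed signal of the 11 measured was 2362.9 in starved and 125.6 in fed knockout muscle, against 60.6 in starved and 1290.2 in fed control muscle.

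All 10 phosphatase genes passed the filter and reached the 75th percentile of at least 1 array. Few of them passed 1.5-fold in any comparison. On starvation of knockout muscle no member was called higher, where 7.39% of all genes were, and 1 was called lower, where 9.45% were. On starvation of control muscle 1 was called higher (9.23% of all genes) and 1 lower (14.2%). In knockout over control, 1 member was called higher (6.39%) and 2 lower (14.6%) in starved muscle, and 0 were called higher (3.38%) and 1 lower (11.3%) in fed muscle. The starvation log2 fold change differed between knockout and control by more than 1.5-fold upwards in 0 members (12.3% of all genes) and downwards in 1 (10.4%). With 10 genes chosen with these values known, nothing is read from these shares. The calls belong to Dusp1, Dusp23 and Dusp26. By the probe set that stands for each gene, the remaining 7 genes stayed within 1.5-fold in all 4 comparisons. Among their other probe sets past the filter, those of Dusp8, Dusp10 and Dusp18 passed 1.5-fold in some comparisons.

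**Figure D1:**
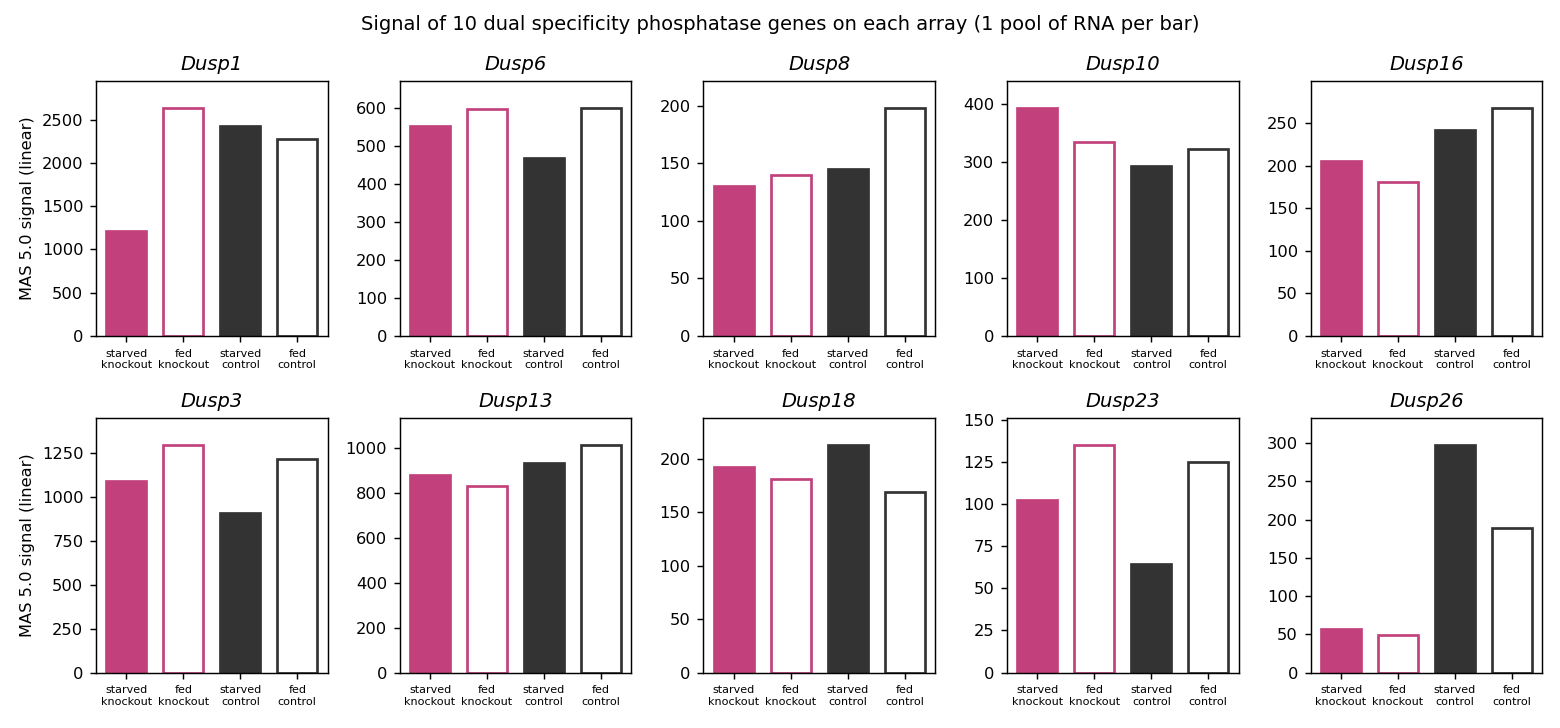
Signal intensity (linear scale, deposited units) of the probe set that stands for each of the 10 phosphatase genes, 1 bar per pooled array, with starved and fed knockout muscle left of starved and fed control muscle. Dusp1 is lowest on the starved knockout array (1215.1) and Dusp26 is low on both knockout arrays (57.0 and 48.6), while most other genes differ little between arrays.

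Dusp1 encodes a nuclear phosphatase that is induced rapidly by growth factors, stress and glucocorticoids and that inactivates p38, JNK and ERK. Its probe set gave a signal of 1215.1 in starved and 2631.6 in fed knockout muscle, against 2431.7 in starved and 2276.9 in fed control muscle. The starved knockout array stood alone at the low end, and the other 3 arrays lay close together. Starvation was accordingly accompanied by a 2.17-fold lower signal in knockout muscle (log2 -1.11) and by a ratio of 1.07 (log2 0.09) in control muscle. Starved knockout muscle had a 2.00-fold lower signal than starved control muscle, whereas the ratio of fed knockout to fed control muscle was 1.16. The difference between the starvation log2 fold changes, knockout minus control, was -1.21, which ranked 399th from the lowest of 12565 genes. For orientation, the SD of this difference between probe sets of the same gene was 0.37 in the brightest of 5 signal classes of genes, to which Dusp1 belongs. That scatter holds no variation between pools of mice. Because whole muscle was profiled, fewer cells of a type and less RNA per cell cannot be told apart in this or any other value. Dusp1 was lower on the starved knockout and fed control arrays than on the other 2, which are the arrays with the higher hair shaft signal. In all, 835 genes (6.65%) had this order of arrays, and the part of hair in the Dusp1 values was not tested. On the fed control array, where the hair shaft sum was 1290.2, the Dusp1 signal was 2276.9.

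The sequence upstream of Dusp1 is shown because it holds a full cyclic AMP response element (TGACGTCA), the motif through which CREB family factors act on many rapidly induced genes. Of the 9 members with a promoter in the table, only Dusp8 shares it. Both are the 250 bases before the annotated start in RefSeq (GRCm38.p6), written 5′ to 3′ on the strand of the gene, with each element in capitals. Dusp1 lies on the minus strand at chr17:26508473-26508722 and Dusp8 on the minus strand at chr7:142095285-142095534.
Dusp1: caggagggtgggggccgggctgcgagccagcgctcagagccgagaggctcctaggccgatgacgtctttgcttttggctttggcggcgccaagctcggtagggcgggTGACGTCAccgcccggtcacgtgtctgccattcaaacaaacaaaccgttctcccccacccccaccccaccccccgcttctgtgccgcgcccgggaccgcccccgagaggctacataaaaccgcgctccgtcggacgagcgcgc
Dusp8: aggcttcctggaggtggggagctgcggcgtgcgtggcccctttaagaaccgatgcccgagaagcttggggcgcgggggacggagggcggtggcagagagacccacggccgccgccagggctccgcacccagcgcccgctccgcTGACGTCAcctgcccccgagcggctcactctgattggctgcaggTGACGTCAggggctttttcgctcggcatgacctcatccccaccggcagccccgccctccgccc
The Dusp1 element begins 143 bases before the start, and the Dusp8 elements begin 107 and 63 bases before it. On either strand this motif occurs in 588 of 32851 promoters (1.79%) and in 2 of the 12 promoters found for 9 members. The forkhead motif GTAAACA, which FoxO factors bind, occurs in 3.65% of promoters and in 0 of the 12. A palindromic glucocorticoid response element occurs in 3 promoters in all (0.00913%) and in 0 of the 12. No promoter of Dusp26 was matched. A match is a description of letters, and nothing about binding follows from it or from its lack.

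Dusp6 encodes a cytoplasmic phosphatase that acts on ERK and is transcribed in response to ERK signalling. Its signal was 552.2 in starved and 596.2 in fed knockout muscle, against 469.1 in starved and 598.8 in fed control muscle. The fed values were nearly equal in both genotypes, and both starved values were lower, at a log2 ratio of -0.11 in knockout and -0.35 in control muscle.

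Dusp8, Dusp10 and Dusp16 encode phosphatases that prefer JNK and p38 over ERK. Dusp8 had a signal of 130.6 in starved and 139.9 in fed knockout muscle, against 144.6 in starved and 197.7 in fed control muscle. Fed control muscle was the highest array, with a log2 ratio of -0.45 on starvation of control muscle and -0.50 for fed knockout over fed control muscle. Its second probe set had the same highest array (141.7 and 102.9 in starved and fed knockout muscle, against 140.1 and 182.7 in starved and fed control muscle). By this probe set fed knockout muscle was 1.78-fold lower than fed control muscle, which is past the threshold. A dim further one, with 12.0 and 19.1 in starved and fed knockout against 31.9 and 13.1 in starved and fed control muscle, went the other way on starvation of control muscle (log2 1.28). The genes most like Dusp8 by the distance between centred log2 signals over the 4 arrays, among 7574 genes at or above the 75th percentile of an array, were Smarca2 (0.03), Leprotl1 (0.03), Emcn (0.03), Ccnq (0.03) and Fibp (0.04), of which Emcn is a marker of endothelium. The summed signal of 5 endothelial markers had the same order of arrays as Dusp8 (1861.1 and 1926.4 in starved and fed knockout, against 2144.6 and 2452.5 in starved and fed control muscle), although only 2 of the 5, Tek and Emcn, had it singly. The summed signal of 6 macrophage markers, which is given with Dusp26, had this order too, although only 1 of the 6 had it singly. Of 5 fibroblast markers 2 had it singly, and of 3 adipocyte markers 1 did. The other probe sets of Dusp8 did not have this order. The median signals of the arrays did (22.9 and 23.8 in starved and fed knockout, against 26.0 and 26.3 in starved and fed control muscle). No share of all genes with this order was counted. With arrays scaled to the same median, the Dusp8 ratio of starved knockout over starved control muscle went from log2 -0.15 to 0.04, so the order was not kept. The part of these cell types in the Dusp8 values was not tested.

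Dusp10 had a signal of 392.1 in starved and 333.5 in fed knockout muscle, against 292.0 in starved and 321.9 in fed control muscle. Starved knockout muscle was the highest and starved control muscle the lowest array, with a ratio of 1.34 between them. The dimmer probe set of Dusp10 gave 38.7 and 26.4 in starved and fed knockout muscle, against 26.7 and 40.9 in starved and fed control muscle, and so kept the opposite direction of the starvation ratio in the 2 genotypes. It passed the threshold downwards on starvation of control muscle (1.53-fold) and in fed knockout over fed control muscle (1.55-fold). Dusp16 had a signal of 204.9 in starved and 180.6 in fed knockout muscle, against 241.2 in starved and 267.1 in fed control muscle. Both knockout values lay below both control values. The ratio in fed muscle, 1.48-fold lower in knockout, was the value nearest to the threshold from outside. Its other probe set did not pass the filter (6.6 and 1.8 in starved and fed knockout, against 10.1 and 5.4 in starved and fed control muscle).

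**Figure D2:**
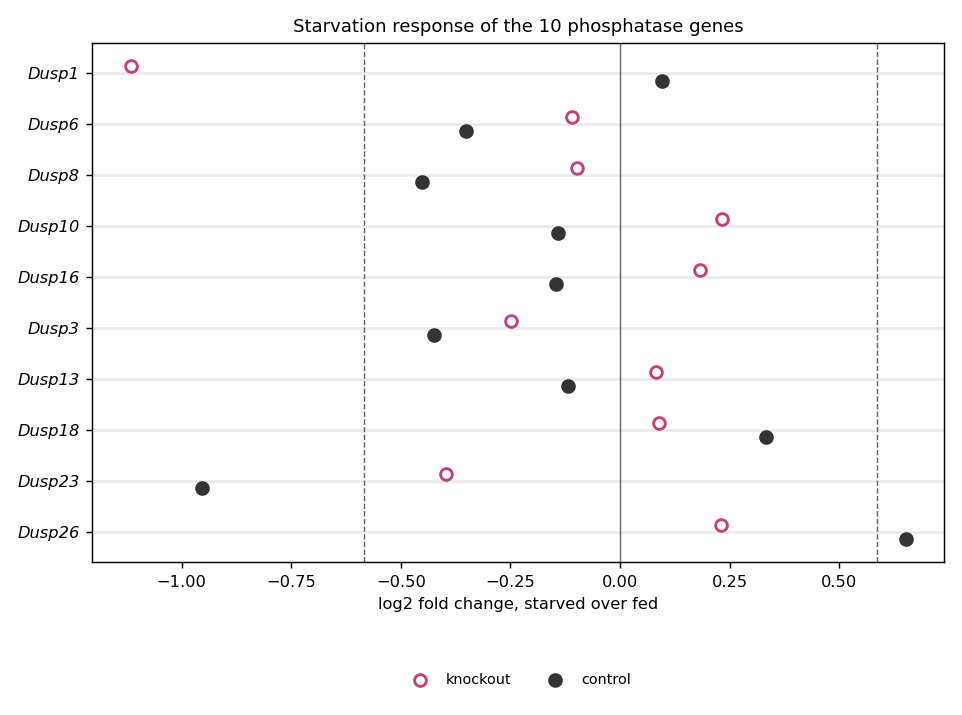
Starvation log2 ratio (starved over fed) of each of the 10 phosphatase genes in knockout muscle (open points) and control muscle (filled points), from 1 array per condition, with dashed lines at 1.5-fold. Dusp1 passes the lower line in knockout muscle (-1.11), Dusp23 passes it in control muscle (-0.95) and Dusp26 passes the upper line in control muscle (0.65).

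By the probe set that stands for each gene, Dusp3, Dusp13 and Dusp18 stayed within 1.5-fold in all 4 comparisons. Dusp3, also known as VHR and described in human cells as a phosphatase of ERK and JNK, had a signal of 1091.4 in starved and 1297.0 in fed knockout muscle, against 909.8 in starved and 1220.2 in fed control muscle. Both starved values were lower, at log2 -0.25 in knockout and -0.42 in control muscle, and the other 2 probe sets of the gene were also lower or level on starvation in both genotypes (log2 between -0.30 and -0.01). Dusp13, a locus that encodes a muscle and a testis phosphatase, had 881.1 in starved and 832.0 in fed knockout muscle, against 934.6 in starved and 1014.1 in fed control muscle. Starvation gave a log2 ratio of 0.08 in knockout and -0.12 in control muscle. The probe set cannot say which of the proteins its transcripts encode. Dusp18 had a signal of 192.3 in starved and 180.7 in fed knockout muscle, against 212.7 in starved and 168.9 in fed control muscle. Its dimmer probe set had 56.4 and 34.0 in starved and fed knockout against 51.1 and 50.6 in starved and fed control muscle, which is a ratio of 1.66 on starvation of knockout muscle that the brighter one (log2 0.09) did not show.

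Dusp23 encodes one of the smallest phosphatases of the family. Its signal was 102.6 in starved and 135.1 in fed knockout muscle, against 64.6 in starved and 125.1 in fed control muscle. Starved control muscle was the lowest array and the fed arrays were close to each other. On starvation the signal was 1.94-fold lower in control muscle (log2 -0.95) and had a log2 ratio of -0.40 in knockout muscle. Starved knockout muscle was 1.59-fold above starved control muscle, a call by a small margin that was lost with 20 added to every signal (log2 0.54). The difference between the genotypes' starvation log2 fold changes was 0.56, against a scatter between probe sets of 0.50 (SD) for genes of its signal range. By the distance between centred log2 signals over the 4 arrays, the genes most like Dusp23 among the same 7574 genes were Crhr2 (0.05), Ormdl1 (0.07), Klhl29 (0.09), A530047J11Rik (0.09) and Carns1 (0.09). All 5 were lowest on the starved control array.

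Dusp26 encodes a phosphatase that is abundant in brain and striated muscle and that has been described in human cells to act on p38. It had the largest genotype ratio of the 10 genes. The signal was 57.0 in starved and 48.6 in fed knockout muscle, against 297.5 in starved and 189.4 in fed control muscle. Both knockout arrays lay far below both control arrays. The knockout signal was 5.22-fold lower in starved muscle (log2 -2.38, 77th from the lowest of 12565 genes) and 3.90-fold lower in fed muscle (log2 -1.96, 131st from the lowest). The scatter between probe sets of a gene was 0.38 (SD, log2) in starved and 0.33 in fed muscle for this signal range. Starvation went with a 1.57-fold higher signal in control muscle, a call by a small margin, and with a log2 ratio of 0.23 in knockout muscle, and the difference between them, -0.42, was within the scatter of 0.50 between probe sets. The gene was read by 1 probe set. Summed signals of markers of 4 other cell types were also lower in knockout muscle, by less. Those of 6 macrophage markers were 4265.0 starved and 4505.2 fed in knockout, against 5678.3 starved and 5823.5 fed in control muscle, and those of the 3 measured adipocyte markers were 2935.9 starved and 3802.8 fed, against 5072.4 starved and 4754.0 fed in control muscle. Those of 5 fibroblast markers were 16707.5 starved and 20939.8 fed, against 17934.0 starved and 23771.6 fed in control muscle, and the endothelial sums are given with Dusp8. Single markers did not all follow, since Cd68, Lep and Col1a1 were higher in starved knockout (147.3, 253.9 and 293.9) than in starved control muscle (127.5, 235.0 and 265.0). These sums were not corrected for array scale. The median log2 ratio of knockout over control over all genes was -0.16 in starved and -0.20 in fed muscle. The sum of 5 slow fibre markers was higher in knockout muscle (18915.1 starved and 20259.0 fed, against 15821.2 starved and 18063.8 fed in control). That of 3 Schwann cell markers was lower in starved (2605.2 against 2893.5) and higher in fed knockout muscle (3244.7 against 3049.0). The part of these cell types in the Dusp26 values was not tested.

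**Figure D3:**
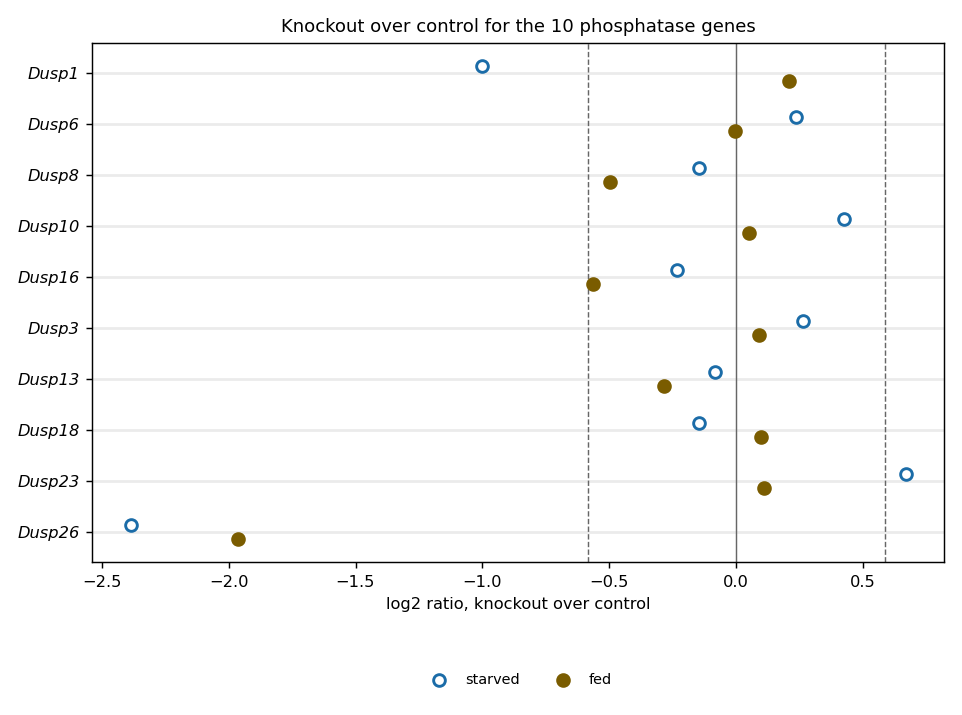
Log2 ratio of knockout over control for each of the 10 phosphatase genes in starved muscle (open points) and fed muscle (filled points), from 1 array per condition, with dashed lines at 1.5-fold. Dusp26 is far below the lower line in starved (-2.38) and fed (-1.96) muscle, whereas Dusp1 is below it in starved muscle (2.00-fold lower) and above 0 in fed muscle (0.21).

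The medians of the 10 genes were set beside those of all genes. Their median log2 ratio on starvation was -0.01 in knockout muscle (all genes -0.06) and -0.14 in control muscle (all genes -0.11). The median of knockout over control was -0.12 in starved muscle (all genes -0.16) and 0.02 in fed muscle (all genes -0.20). The median difference between the starvation log2 fold changes, knockout minus control, was 0.22 (all genes 0.04), with 7 of the 10 genes above the median of all genes. The genotype ratios of Dusp8, Dusp13 and Dusp18 in starved muscle, all between -0.15 and -0.09, took values between 0.04 and 0.10 when the arrays were scaled to the same median, and that of Dusp6 in fed muscle, -0.01, became 0.14. Averaging the probe sets of a gene also turned the sign of Dusp8 (-0.45 to 0.15) and Dusp16 (-0.15 to 0.38) on starvation of control muscle, and of Dusp10 (0.05 to -0.29) and Dusp18 (0.10 to -0.24) in fed knockout over fed control muscle. The difference between starvation log2 fold changes turned from 0.35 to -0.25 for Dusp8 and from -0.24 to 0.24 for Dusp18. The average of Dusp16 takes in a dim probe set that did not pass the filter. None of these values was called, and their direction is not settled.

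Other genes of the family and of the MAP kinase pathway were read from lists. Of 16 other dual specificity phosphatase genes measured, 12 passed the filter. On starvation 1 was called higher and 2 lower in knockout muscle (7.39% and 9.45% of all genes), and 2 were called higher and 2 lower in control muscle (9.23% and 14.2%). The gene called higher in knockout muscle was Dusp27, a catalytically inactive muscle member, with 464.2 in starved and 306.8 in fed knockout muscle, against 320.1 in starved and 314.4 in fed control muscle. Dusp11, an RNA phosphatase, had 161.1 and 157.8 in starved and fed knockout, against 230.2 and 157.0 in starved and fed control muscle, and was not called on starvation (log2 0.55 in control muscle). Dusp14, a phosphatase of ERK and JNK, had a signal of 136.6 in starved and 260.5 in fed knockout muscle, against 66.1 in starved and 249.6 in fed control muscle. It was lower in starved muscle of both genotypes, by log2 -0.93 in knockout and -1.92 in control muscle. Dusp7, which inactivates ERK, had 244.5 and 444.7 in starved and fed knockout, against 253.5 and 358.2 in starved and fed control muscle, and was called in knockout muscle (log2 -0.86). Styx, a catalytically inactive relative, had 958.3 and 1214.9 in starved and fed knockout, against 946.0 and 1634.7 in starved and fed control muscle, and was called in control muscle (log2 -0.79). Dusp4, a nuclear phosphatase that was named after its values were seen, was dim. It had 25.1 and 24.8 in starved and fed knockout, against 59.3 and 38.9 in starved and fed control muscle. Its signal was 2.36-fold lower in knockout than in control among starved muscles (log2 -1.24) and 1.57-fold lower among fed muscles (log2 -0.65). For genes of its signal range the scatter between probe sets (SD, log2) was 0.82 in starved and 0.75 in fed muscle. The fed value was within this scatter. Of all genes, 14.6% were called lower in starved and 11.3% in fed knockout over control muscle.

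Among the kinase genes that passed the filter, Map2k6, which activates p38, had the largest difference between genotypes in its starvation log2 fold change (1.66) and in starved muscle (1.92). Its signal was 408.2 in starved and 313.5 in fed knockout muscle, against 107.9 in starved and 262.5 in fed control muscle, which is a log2 ratio of 0.38 on starvation of knockout and -1.28 on starvation of control muscle. It was the only one of 6 MAP kinase kinases called in any comparison. Mapk14, which encodes p38 alpha, had 1334.1 and 1242.8 in starved and fed knockout, against 1149.8 and 1319.9 in starved and fed control muscle, and was not called. Of the 8 MAP kinase genes that passed the filter, 0 were called higher and 2 lower on starvation in each genotype (Mapk7 and Mapk11, dim genes named after their values were seen), beside 9.45% of all genes called lower in knockout and 14.2% in control muscle. Mknk2, which phosphorylates eIF4E downstream of ERK and p38, had 4530.1 and 4130.2 in starved and fed knockout, against 6362.0 and 3921.1 in starved and fed control muscle, and was called higher on starvation of control muscle only (log2 0.70). The difference between genotypes was not tested. Rps6ka5, a kinase activated by ERK and p38, had 143.4 and 206.5 in starved and fed knockout, against 85.3 and 131.1 in starved and fed control muscle. It was called higher in knockout muscle in both states and lower on starvation of control muscle (log2 -0.62). Mapkapk3, a kinase activated by p38, had 563.1 and 563.3 in starved and fed knockout, against 334.2 and 452.3 in starved and fed control muscle, and was called higher in starved knockout over starved control muscle (log2 0.75). Mknk1, a relative of Mknk2, had 116.4 and 110.9 in starved and fed knockout, against 141.1 and 171.5 in starved and fed control muscle, and was called lower in fed knockout over fed control muscle (log2 -0.63). Spry2, a feedback inhibitor of ERK signalling, had 228.9 and 322.2 in starved and fed knockout, against 200.6 and 384.0 in starved and fed control muscle, with a call in control muscle (log2 -0.94). Mapk6, Mapk8, Mapk9, Nlk, Map2k1, Map2k2, Map2k3, Map2k5, Mapkapk2, Spry1, Spred1 and Spred2 were not called in any of the 4 comparisons, and their starvation log2 ratios lay between -0.52 and 0.30.

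Immediate early genes and transcription factors induced by ERK were mostly lower in starved knockout than in starved control muscle. Of 14 that passed the filter, 13 had a lower signal in starved knockout than in starved control muscle, and 11 of these passed 1.5-fold, beside 14.6% of all genes. The median log2 ratio of all genes in that comparison was also below 0 (-0.16). Of the 14 genes, 7 had their lowest signal on the starved knockout array, as Dusp1 did, and the other 7 had it on another array. The starved knockout array had the lowest median signal of all (22.9), and no share over all genes was counted beside these 7. On starvation, 0 were called higher and 4 lower in knockout muscle (7.39% and 9.45% of all genes), against 9 called higher and 0 lower in control muscle (9.23% and 14.2%). Fos had 274.9 in starved and 675.6 in fed knockout muscle, against 1157.6 in starved and 410.1 in fed control muscle. Egr1 had 341.7 in starved and 877.2 in fed knockout muscle, against 1023.1 in starved and 820.5 in fed control muscle. Both were lowest on the starved knockout array and highest on the starved control array. Junb had 81.6 and 73.4 in starved and fed knockout, against 188.3 and 94.1 in starved and fed control muscle, and Myc had 81.0 and 78.8 in starved and fed knockout, against 193.9 and 89.2 in starved and fed control muscle. These 2 differed from Fos and Egr1 in that their knockout arrays were level, with the starved control array alone being high. The 4 genes called lower on starvation of knockout muscle were Fos, Egr1, Egr3 and Fosb, the last 2 of which were dim and were named after their values were seen. The list was written with these values known, and its counts are a description.

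**Figure D4:**
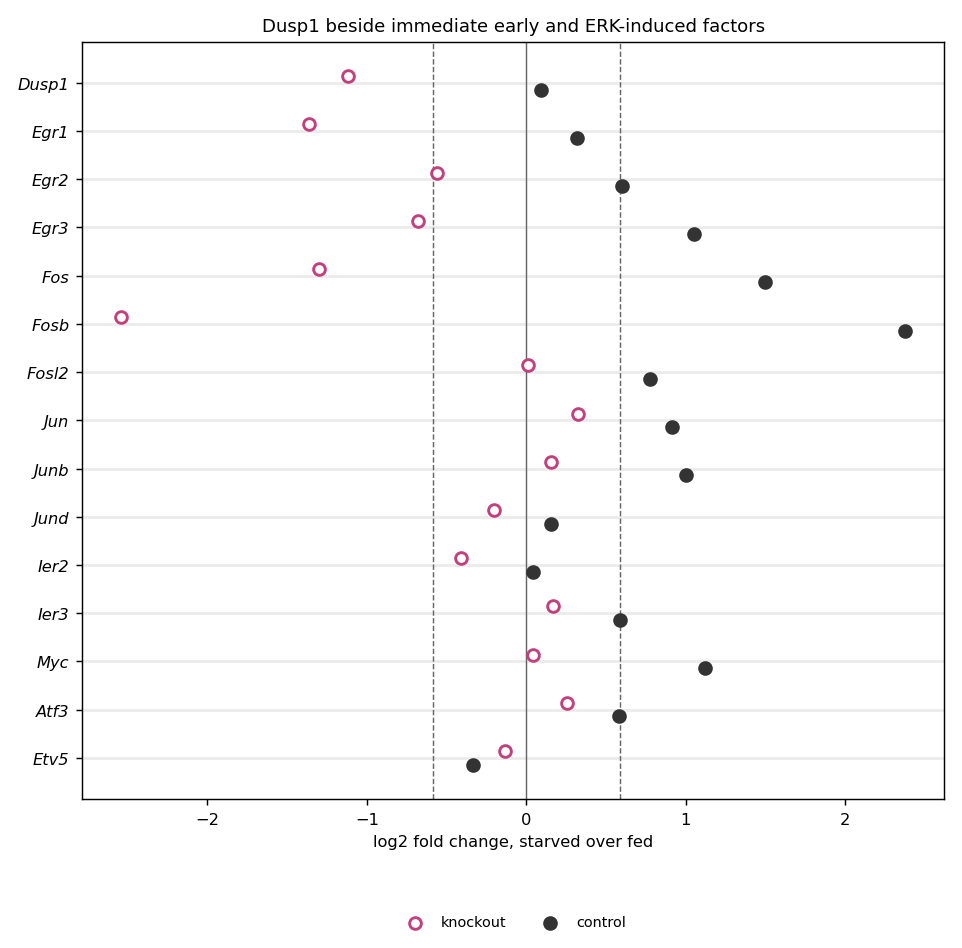
Starvation log2 ratio of the immediate early and ERK-induced transcription factor genes that passed the filter, with Dusp1 for comparison, in knockout muscle (open points) and control muscle (filled points), from 1 array per condition. Fos is at -1.30 in knockout and 1.50 in control muscle, and Egr1 at -1.36 and 0.32, while Dusp1 is at -1.11 and 0.09.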

How the data were processed

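Signals were measured on 4 Affymetrix Mouse Genome 430 2.0 arrays, each holding RNA pooled from 6 muscles of 3 mice. The authors deposited MAS 5.0 signal intensities in linear units, and the submitters' processing notes also list Affymetrix Expression Console. No scaling target was found in the labels or methods. Of 45037 probe sets other than controls, 34945 were annotated to 1 gene, 932 to several and 9160 were not listed, and 34741 were matched to current names by gene identifier. A signal at 0 was set to 0.1. Probe sets under the 50th percentile of every array were left out, leaving 12565 genes, each represented by its remaining probe set of highest mean signal. Ratios were called at 1.5-fold in either direction. Motifs were searched on both strands of the 250 bases before and 50 after each RefSeq start. Python 3.11.15 was used with pandas 2.3.3, numpy 2.4.6 and matplotlib 3.10.9.

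The number of arrays limits the precision. The members and lists were chosen with earlier results of these data known. All probe sets of the members were examined. From the other lists, genes reaching the 75th percentile of an array were named if among the 4 that changed most on starvation or the 4 whose change differed most between genotypes. Likeness was taken for the MAP kinase phosphatase and the atypical gene that changed most on starvation of control muscle. Alternatives were array scaling, an offset of 20, the filter, the probe set rule and a 2-fold threshold.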

Additional observations from a re-analysis of the deposited data

Results flagged for a closer look

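The starvation ratio ran in opposite directions in knockout and control muscle for 4 members, with 1 array per condition, and the difference was not tested for any of them. No share of all genes with opposite directions was counted beside these 4, so nothing is read from the number. Relative to the median of all genes, the control log2 ratios of Dusp10, Dusp16 and Dusp13 were -0.03, -0.03 and -0.01. Dusp1 had a log2 ratio of -1.11 in knockout and 0.09 in control muscle, a difference of -1.21. Dusp10 had 0.23 in knockout and -0.14 in control muscle, a difference of 0.37. Dusp16 had 0.18 in knockout and -0.15 in control muscle, a difference of 0.33, but with its probe sets averaged both ratios were above 0 (1.03 in knockout and 0.38 in control muscle). Dusp13 had 0.08 in knockout and -0.12 in control muscle, a difference of 0.20. Between probe sets of the same gene, the SD of this difference was 0.37 for genes in the signal range of Dusp1 and Dusp13 and 0.42 for genes in that of Dusp10 and Dusp16. By the probe set that stands for each gene, the Dusp1 difference alone exceeded this SD. With probe sets averaged, the differences of Dusp10 (0.77) and Dusp16 (0.65) exceeded it too. These averages take in the dimmer probe sets, and that of Dusp16 did not pass the filter (6.6 and 1.8 in starved and fed knockout muscle). The SD is for single probe sets of the brighter range, so it is not a like measure for the averages.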

How the results depend on the processing

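Scaling to equal medians moved the median of all genes for knockout over control to 0.02 in starved and -0.05 in fed muscle, from -0.16 and -0.20. With arrays scaled to the same median, the same trimmed mean or the same quantiles, 2 members (Dusp10 and Dusp23) instead of 1 were called higher in starved knockout over starved control muscle. Over all genes, 803 higher and 1835 lower in that comparison became 1264 and 1046 with equal medians, 1267 and 1044 with equal trimmed means, and 1279 and 1039 with quantile normalisation. In fed muscle, 425 and 1416 became 601 and 903, 674 and 787, and 637 and 798. On starvation of knockout muscle, 928 and 1188 became 1059 and 994, 1057 and 996, and 1093 and 974, and on starvation of control muscle, 1160 and 1789 became 1208 and 1712, 1327 and 1501, and 1350 and 1468. With 20 added to every signal, 0 members were called higher in starved knockout over starved control muscle, since Dusp23 lost its call (log2 0.54). When the probe sets of a gene were averaged, 1 member (Dusp16) was called higher on starvation of knockout muscle and 2 (Dusp16 and Dusp26) lower in fed knockout over fed control muscle. The averages take in probe sets that did not pass the filter, as the dim one of Dusp16 did not. At a threshold of 2-fold, 0 were called higher and 0 lower on starvation of control muscle and 0 higher in starved knockout over starved control muscle, while the lower calls of Dusp1 and Dusp26 were kept. The Dusp1 value in starved knockout over starved control muscle (2.00-fold lower) lay right at that threshold. It was log2 -0.82 with equal medians, -0.82 with equal trimmed means, -0.80 with quantile normalisation and -0.99 with the offset, each short of 2-fold. The filter and the choice of probe set by fed control signal changed no count of members. They could not have, since all 10 members reach the 75th percentile of an array and that choice gave the same probe sets. Of 300 single values recomputed, 292 stayed within the scatter between probe sets and 8 moved, of which 7 with averaged probe sets and 1 with the added offset (Dusp26 in fed muscle, -1.61). The 50 values by fed control signal could not move, nor could those of the 5 members with 1 probe set on averaging, so the count says little about stability. No call changed direction. No paired analysis was possible because each condition has 1 array, and leaving an array out removes its comparison.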
